A study of Mus musculus with 4 samples.

Results

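The response of wild-type (WT) mouse keratinocytes to interleukin-4 (IL-4) was the log2 value of each transcript cluster in the IL-4 culture minus its value in the untreated culture. A transcript cluster is the array's unit for 1 gene or group of transcripts. Clusters were kept where the highest value over the 4 arrays of the series reached the median of all table values, 5.33, and 11456 of 22206 clusters (51.6%) met this rule. The last cluster inside it had a highest value of 5.3304 and a WT difference of 0.28, and the first one outside had 5.3282 and a WT difference of -0.62. The WT IL-4 culture held primary keratinocytes of male WT mice, kept for 12 h in EpiLife, a keratinocyte medium, with 100 ng/ml of recombinant IL-4. The untreated WT culture had the same medium and time without the cytokine. A second pair of cultures, with and without IL-4, came from male mice labelled HMGB1 knockout (KO), which the design text names K5-HMGB1. The number of animals behind a culture and the way the mutant allele was made are not given in the sources used here. RNA of each culture was hybridised to 1 Affymetrix Clariom S Mouse array, so every value below is a single measurement, differences are given as sizes, and no p-value was computed.

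IL-4 is a cytokine of type 2 immunity, made mainly by T helper cells, mast cells and basophils. It binds a receptor of the IL-4 receptor alpha chain with either the common gamma chain or, on epithelial cells, the IL-13 receptor alpha 1 chain, and Janus kinases on these chains then phosphorylate the transcription factor STAT6. Keratinocytes divide while attached to the basement membrane and, on leaving it, switch to suprabasal keratins, desmosomal cadherins and cornified envelope proteins. In human keratinocytes IL-4 is known to lower the genes of that late programme.

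"Rose" and "fell" are used for a difference of at least 2-fold, a log2 difference of 1. Of the 11456 clusters, 1250 rose (10.9%) and 1076 fell (9.39%) in WT with IL-4. Under cyclic loess scaling the counts were 1031 rises and 1242 falls, so the balance of the 2 depends on the scaling. The median difference of all of them was 0.09, and the central 90% lay between -1.66 and 1.44. Large falls were more frequent than large rises: 266 clusters rose at least 4-fold (2.32%) and 426 fell at least 4-fold (3.72%), and at 16-fold the counts were 20 and 91. Clusters that rose had a median value of 9.92 with IL-4 and 8.25 untreated, and clusters that fell had a median of 8.01 with IL-4 and 10.4 untreated.

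**Figure D1:**
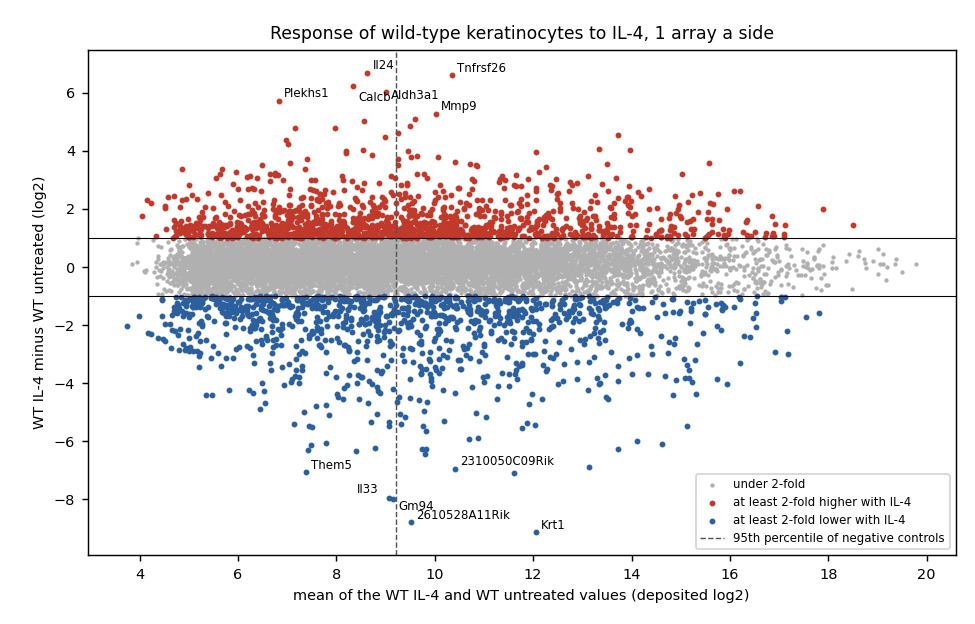
Difference between WT with IL-4 and WT untreated (log2, vertical) against the mean of the 2 values (deposited log2, horizontal) for the 11456 clusters. Horizontal lines mark 2-fold, the dashed line at 9.21 marks the level that 5% of negative control values exceed, and the 6 largest named rises and falls carry their symbols, with Krt1 lowest at -9.14 and Il24 highest at 6.68.

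The deposited tables pair 2560 of the kept clusters' genes with a symbol, and these genes are not a sample of all genes. The table of the WT comparison holds exactly the clusters that passed 2-fold. Thus 1202 of the 2560 named genes rose (47.0%) and 1044 fell (40.8%), and the median of the 2560 was 0.55. The other 314 were named through the authors' table of KO against WT with IL-4. A listed gene without a symbol here was not analysed by name. No kept cluster past 2-fold in WT lacks a symbol, though 72 of them carry several. Such a gene was therefore under 2-fold in WT or under the level filter, unless it shares a cluster, has another symbol or is not on the array. Each list below therefore gives how many members could be named, and its counts read against 47.0% and 40.8% rather than against 10.9% and 9.39%.

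The label keratinocyte could be checked with only 3 of 14 markers, the others having no symbol here. Itgb4, the beta 4 integrin of hemidesmosomes, had a log2 value of 16.59 with IL-4 and 14.96 untreated. Krt1 and Krt10, the keratin pair of suprabasal cells, had 7.49 and 6.80 with IL-4 and 16.62 and 11.98 untreated. All 3 were thus well above the negative controls in the untreated culture. Markers of other cells were partly present. Of 11 melanocyte markers 4 were named, Pmel, Dct and Kit (dim, with both values under the 95th percentile of negative controls) fell, Tyrp1 was at -0.72, and the sum of their linear levels was 12.08 with IL-4 and 13.12 untreated on the log2 scale. Cd68, the only one of 13 macrophage and dendritic cell markers named, was at 10.71 with IL-4 and 13.18 untreated. Cd4, the only T cell marker named of 10, was at 5.29 with IL-4 and 6.37 untreated, both within the range of the negative controls. No endothelial marker was named, and of 17 fibroblast markers Fbln1 (dim) fell while Sparc (-0.95) and Vim (-0.74) were under 2-fold, with summed levels of 11.03 with IL-4 and 11.94 untreated. Deposited values have no zeros, so absence cannot be read from them. In these single cultures fewer cells of a type and less RNA per cell cannot be told apart. The part of other cell types in the results below was not tested.

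The largest named rise was that of Il24, a cytokine of the IL-20 family (chromosome 1, 130882074 to 130887411 in GRCm38.p6). It had a log2 value of 11.97 with IL-4 and 5.28 untreated, a rise of 6.68, and the authors' deposited table gives it a fold of 102.83. Tnfrsf26, a TNF receptor family member (chromosome 7, 143607685 to 143627845), had 13.65 with IL-4 and 7.05 untreated. Calcb, which encodes a calcitonin gene-related peptide (chromosome 7, 114716555 to 114723368), had 11.44 with IL-4 and 5.22 untreated. In each of these genes the untreated value lay below 9.21, the 95th percentile of negative controls, and the IL-4 value above it, so the direction is clear of the control range on one side only and the size is uncertain. The same held for the aldehyde dehydrogenase Aldh3a1 (12.03 with IL-4 and 5.99 untreated), for Plekhs1 (9.69 and 3.96, the first close to that percentile) and for the gelatinase Mmp9 (12.65 and 7.39). Further rises of this kind were those of Lox, an enzyme that cross-links collagen (12.14 with IL-4 and 7.04 untreated), Slc4a11, a membrane transporter (11.06 and 6.05), Atp1b1, the beta 1 subunit of the sodium pump (11.91 and 7.07), and Rgs16, a regulator of G-protein signalling (9.56 and 4.76, the first again close to it). The KO pair had rises of 7.43 for Il24, 6.76 for Tnfrsf26, 3.60 for Calcb and 1.42 for Rgs16.

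The largest falls were of genes that were bright in the untreated culture. Krt1 (chromosome 15, 101845426 to 101850786) fell by 9.14. Il33, an alarmin of the interleukin-1 family (chromosome 19, 29925113 to 29960718), had 5.09 with IL-4 and 13.05 untreated. Both IL-4 values lay in the range of the negative controls. 2610528A11Rik, for which the files give only a clone name, had 5.11 with IL-4 and 13.90 untreated, and Gm94, a predicted gene, had 5.15 and 13.14. Them5, a thioesterase, had 3.84 with IL-4 and 10.90 untreated, and Teddm3 had 6.68 and 12.94. KO differences were -9.36 for Krt1, -8.59 for 2610528A11Rik, -7.27 for Il33 and -5.28 for Gm94.

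Sizes are clearer of the control range where both values lie between 9.21 and 16. The upper bound is the limit of a 16-bit scanner, which may not apply to the deposited scale. Of 4657 clusters with both values in that range, 428 rose (9.19%) and 348 fell (7.47%). Their largest named rise was Plau, the urokinase plasminogen activator (chromosome 14, 20836662 to 20843388), with 15.997 with IL-4 and 11.44 untreated. Pmp22, a membrane protein of peripheral myelin, had 15.39 with IL-4 and 11.31 untreated. Fn1, the matrix protein fibronectin, had 15.99 with IL-4 and 11.96 untreated. Secreted factors and adhesion genes made up most of the rest: the vasoconstrictor peptide Edn1 rose by 3.95, the matricellular protein Ctgf by 3.53, the matrix protein Tinagl1 by 3.26, the adhesion molecule Mcam by 3.18 and the laminin chain Lamb1 by 3.13. Mcam was the only one of these 12 rises that was under 2-fold in KO, at 0.35, where it was already at 11.93 in the untreated KO culture, against 10.06 in untreated WT. Of the 12 largest falls in range 4 were on the cornified envelope list, Lce1k, Lce1f, Tgm1 and Lce1j. Lce1k, a late cornified envelope gene, had 9.33 with IL-4 and 14.76 untreated. Epgn, which encodes the EGF receptor ligand epigen (chromosome 5, 91027517 to 91035212), had 9.56 with IL-4 and 14.29 untreated. Tgm1, the transglutaminase that cross-links the envelope, had 9.91 with IL-4 and 14.47 untreated. Further falls in range were those of Il1f5 (-4.47), S100a8 (-4.37), Serpinb6c (-4.10), Dsg1c (-4.09), the pore-forming Gsdma (-4.03), the nuclease Dnase1l2 (-4.01) and Urah, an enzyme of urate breakdown (-3.98). All 12 falls passed 2-fold in KO as well. Prl2c5 and the Lce1 genes have near-identical relatives, and probes may not separate them.

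**Figure D2:**
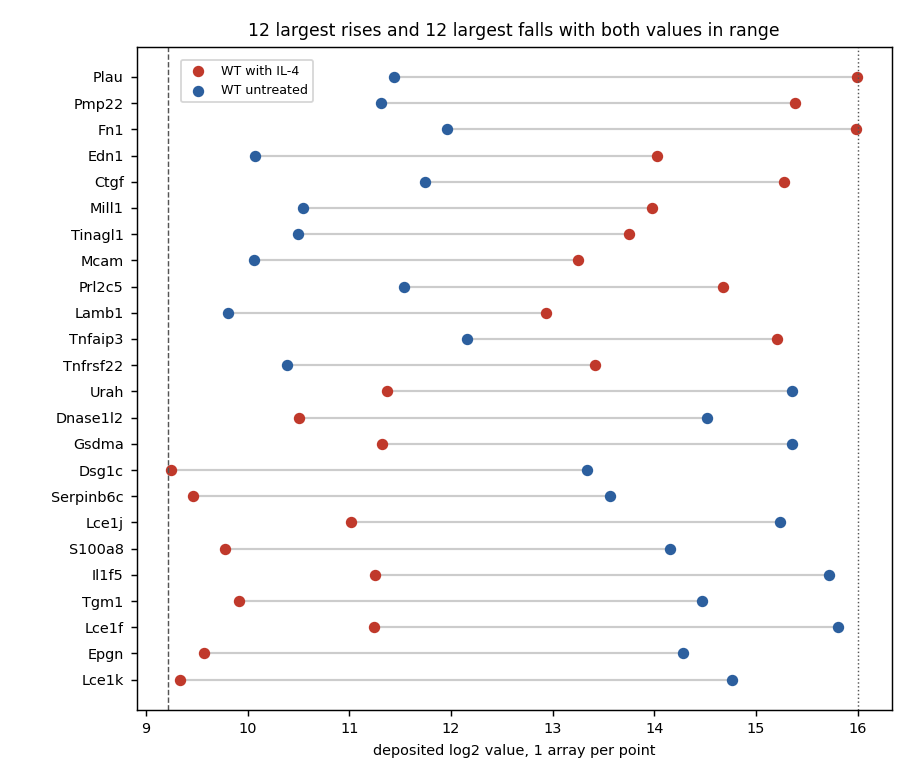
Deposited log2 values of the 12 largest named rises and the 12 largest named falls among clusters with both WT values between 9.21 (dashed) and 16 (dotted). Each row is 1 gene, with 1 array per point, WT with IL-4 in red and WT untreated in blue, and Plau and Lce1k show the widest rise and fall.

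The only repeat in the series was the KO pair, which shares no array with the WT pair. It is no replicate of WT, and cultures of 1 treatment may have been handled together. In KO 1045 clusters rose (9.12%) and 1090 fell (9.51%). Of the WT rises of 2 to 4-fold, 44.1% also rose in KO, and of those of 4 to 8-fold 82.3% did. All 20 rises of at least 16-fold rose in KO, and 90 of 91 such falls fell in KO. Negative control rows, which have no target in the genome, were set beside the clusters. Whether both kinds of row are on the same scale is not known. Of 5222 control rows 27.7% differed at least 2-fold between the WT arrays and 6.63% at least 4-fold, against 20.3% and 6.04% of the kept clusters. Control rows were not filtered by level. The brighter WT value reached 9.21 in 349 control rows and 5930 kept clusters. Of these, 46.1% of the control rows and 23.8% of the clusters differed at least 2-fold. The direction was what separated clusters from controls, in rows not matched for level: 684 of 692 clusters past 4-fold (98.8%) kept it in the KO pair, and 212 of 346 control rows (61.3%) did. Differences of 2-fold were thus no more frequent in clusters than in control rows. Where both WT values of a gene lie under 9.21, its difference is called dim below.

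**Figure D3:**
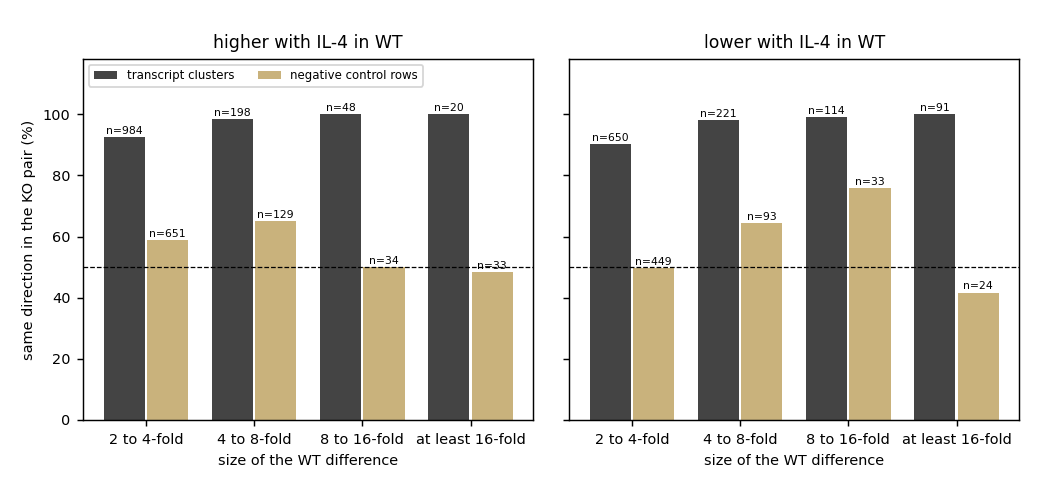
Share of rows with the same direction in the KO pair (%, vertical) by the size of the WT difference (horizontal), for clusters that were higher with IL-4 (left) and lower (right). Dark bars are transcript clusters and light bars negative control rows, with the number of rows above each bar and 50% dashed; clusters lie between 90.2% and 100%, control rows between 41.7% and 75.8%.

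The genes of the cytokine's own pathway were few among the named clusters. Of 25 listed genes of the IL-4 receptor and its Janus kinase and STAT pathway 8 were named, of which 5 rose and 3 fell. Il13ra1, the receptor chain that pairs with IL-4 receptor alpha on epithelial cells, had 8.50 with IL-4 and 11.66 untreated. Il2rg, the common gamma chain of the other receptor form, had 9.56 with IL-4 and 7.19 untreated. The receptor chains thus moved apart, with Il13ra1 at -3.15 and Il2rg at 2.37, while in KO they were at -2.83 and 0.68. Tyk2, a Janus kinase, rose by 1.10 and Irs1, an adaptor of the IL-4 and insulin receptors, by 3.14, the last one dim. The feedback inhibitors Cish and Socs2 rose by 1.29 and 1.55 in WT, both dim, and were at 0.19 and -0.98 in KO. Pim1, a kinase gene known as a STAT target in blood cells, fell by 2.23, with 12.25 with IL-4 and 14.48 untreated. Socs1, Socs3, Stat6 and Il4ra carry no symbol here, so no kept cluster under 1 of these names alone passed 2-fold in WT.

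Transcription factors of the epidermis fell as a group. Of 48 listed factors 33 were named, of which 29 fell, 2 rose and 2 were under 2-fold, with a median of -1.78 in WT and -1.72 in KO. Rora, a nuclear receptor, had 7.88 with IL-4 and 11.99 untreated. Foxn1, the factor lost in nude mice, had 6.63 with IL-4 and 10.41 untreated. In both the IL-4 value was within the control range and the untreated value above it. Falls with both values in range were those of Zfp750 (10.54 with IL-4 and 13.53 untreated), an activator of late differentiation genes, and Grhl1 (11.24 and 13.80), a regulator of desmosomal cadherins. Klf4, required for the barrier in mice, had 11.38 with IL-4 and 13.40 untreated, and Grhl3 and Prdm1 fell (-1.78 and -1.86). Ovol1 and Cebpa had IL-4 values under 9.21 and fell (-3.25 and -2.78). The 2 rises were of Runx1 (12.62 with IL-4 and 11.07 untreated) and Sox15 (dim), at 0.61 and 0.47 in KO. Sox9, a factor of hair follicle cells, was at 0.67. Of 23 Notch pathway genes 4 were named, and Nrarp, a feedback gene of Notch signalling, had 7.80 with IL-4 and 10.44 untreated.

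Cornified envelope genes fell without exception among those named. Of 60 listed 54 were named and all 54 fell, with a median of -3.63 in WT and of -2.65 in KO, where 46 passed 2-fold. The list was known to fall before it was counted here, and its members within a family share sequence. Hrnr and Flg2, relatives of filaggrin, fell (-6.90 and -6.30). Within the late cornified envelope genes that were not dim the size differed by subfamily. The named Lce1 genes had differences between -5.48 and -3.73, and the Lce3 genes between -2.34 and -1.90. The dim ones were Lce1l (-3.14), Lce1m (-1.23) and Lce3a (-1.33), and with these counted the subfamilies overlap. The 6 named members of the small proline-rich Sprr2 family on the list fell, at between -2.96 and -1.62.

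Promoters of the falling genes held the AP-1 motif more often than promoters at large. AP-1 is the family of Fos and Jun dimers, and its motif was searched as TGANTCA on both strands in the 250 bases before the start of each gene's first RefSeq promoter. It was found in 15.2% of 323 promoters of genes that fell at least 4-fold, in 5.46% of 183 promoters of genes that rose at least 4-fold, and in 6.87% of all 27025 promoters. In the cornified envelope list 18 of 49 promoters held it. The 3 promoters printed here, of the major envelope proteins loricrin and involucrin and of filaggrin, show the motif in capitals, 5′ to 3′ on the gene's strand, from RefSeq on GRCm38.p6. Lor lies at chr3:92083143-92083392, minus strand, Ivl at chr3:92573736-92573985, minus strand and Flg at chr3:93273296-93273545, plus strand.
Lor: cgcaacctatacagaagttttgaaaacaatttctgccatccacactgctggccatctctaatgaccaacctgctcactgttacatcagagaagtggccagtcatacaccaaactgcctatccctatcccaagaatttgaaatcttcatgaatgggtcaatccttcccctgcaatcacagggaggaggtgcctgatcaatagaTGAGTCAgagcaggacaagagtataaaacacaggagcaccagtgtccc
Ivl: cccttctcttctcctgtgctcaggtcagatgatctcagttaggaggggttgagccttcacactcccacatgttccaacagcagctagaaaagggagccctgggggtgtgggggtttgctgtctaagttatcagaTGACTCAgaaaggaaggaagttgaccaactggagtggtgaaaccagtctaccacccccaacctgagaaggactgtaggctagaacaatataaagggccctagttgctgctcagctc
Flg: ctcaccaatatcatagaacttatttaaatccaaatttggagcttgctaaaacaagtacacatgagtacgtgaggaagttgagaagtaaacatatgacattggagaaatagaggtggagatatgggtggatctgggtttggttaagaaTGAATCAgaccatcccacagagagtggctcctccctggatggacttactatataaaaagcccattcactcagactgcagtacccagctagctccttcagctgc
The motif spans the bases 48 to 42 before the start in Lor, 116 to 110 in Ivl and 103 to 97 in Flg. Lor had 4.71 with IL-4 and 10.19 untreated, Ivl had 12.17 and 15.84, and Flg had 13.80 and 17.65. The AP-1 genes Fos and Jun themselves fell (-1.96 and -1.88). A match is a description of letters and shows no binding, paralogs such as the Sprr2 genes share promoter sequence, and the motifs described were picked from 15 after their shares were seen.

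**Figure D4:**
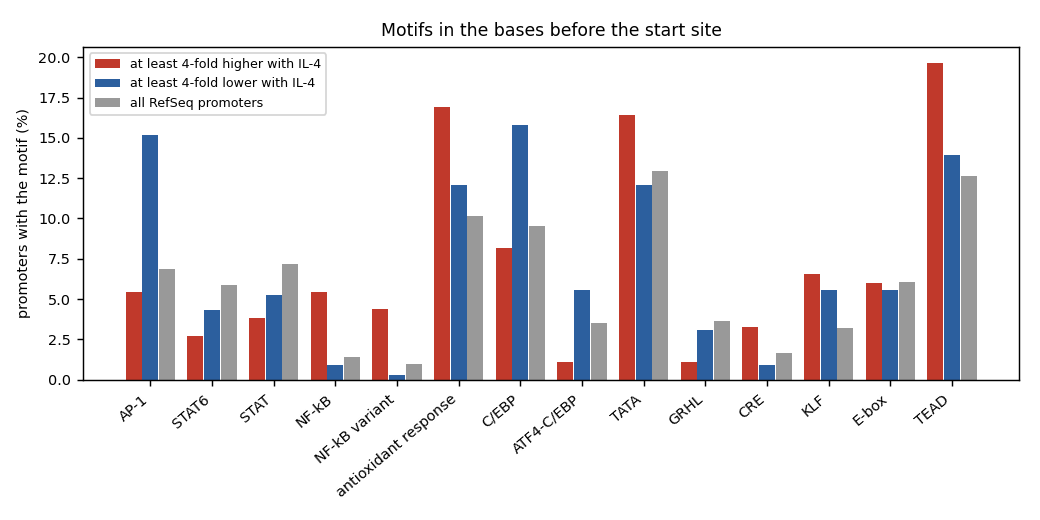
Share of promoters with each motif (%, vertical) in the 250 bases before the start, for genes at least 4-fold higher with IL-4 (red, 183), at least 4-fold lower (blue, 323) and all RefSeq promoters (grey, 27025). AP-1 stands at 15.2% in the falls against 6.87% in all, and NF-kB at 5.46% in the rises against 1.399%; the SRF core, found in most promoters, is left out.

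Keratins and desmosomes showed exchange within a family. Of 38 keratin list members 10 were named, and 7 fell. Krt16, a keratin of stressed epidermis, had 15.46 with IL-4 and 18.37 untreated. The 3 rises were all of simple-epithelium keratins: Krt18 rose by 3.72, Krt7 by 2.31 and Krt8 by 1.78, against 6.40, 1.05 and 5.05 in KO. Krt8 and Krt18 also mark Merkel cells. The 5 other markers of that list carry no symbol here. Of 19 desmosome genes 12 were named and 10 fell. Dsc1, a suprabasal desmocollin, had 11.13 with IL-4 and 17.11 untreated. Dsg1a and Dsg1b, desmogleins of the upper layers, fell (-6.26 and -3.83). Dsc3 and Dsc2, desmocollins also found in lower layers, and the plakophilin Pkp3 fell in smaller steps (-1.17, -1.41 and -1.34). Dsg2 and Pkp2, the desmoglein and plakophilin of simple epithelia and heart, rose by 1.502 and 1.93, Pkp2 being dim. The desmosomal cadherins share 1 cluster on chromosome 18, from 19960930 to 20604526, in which 6 named genes fell and Dsg2, at its edge, rose.

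Junction genes moved in both directions. The connexins Gjb2 and Gjb6, proteins of gap junctions whose genes are neighbours on chromosome 14 (57098602 to 57133611), fell (-3.12 and -4.02). Gjb2 had 9.15 with IL-4 and 12.28 untreated, and KO values were -2.08 for Gjb2 and -1.999 for Gjb6. Tight junction genes mostly rose: Cldn3, a claudin, had 10.65 with IL-4 and 6.78 untreated, Cgn (cingulin, a cytoplasmic junction protein) had 11.52 and 9.77, and Cldn4 had 17.62 and 16.60. In all, 8 of the 12 named tight and gap junction genes rose and 4 fell. Epcam, an adhesion molecule of simple epithelia, rose by 2.37, while the surface proteins Ly6g6c, Lypd5 and Ly6d of stratified epithelia fell (-4.42, -3.68 and -3.01).

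Genes of attachment to the basement membrane rose in every named case. Of 35 listed 20 were named and all 20 rose, with a median of 1.71, and 19 did under cyclic loess. Lamb1 led them (12.93 with IL-4 and 9.80 untreated). Fermt1, the integrin activator kindlin-1, had 15.41 with IL-4 and 12.84 untreated. Itga2, the collagen-binding integrin chain, had 17.02 with IL-4 and 14.50 untreated. Several of these genes exceeded 16 with IL-4, where the scale is uncertain. In KO 14 of the 20 passed 2-fold and the others lay between 0.19 and 0.97. Matrix and remodelling genes rose in 22 of 29 named cases, with Spp1, which encodes osteopontin, at 9.64 with IL-4 and 6.64 untreated, Tnc (tenascin C) at 16.63 and 13.42, and Adamts4 dim. Tgfbi, a matrix protein, was the largest of 4 falls, with 9.76 with IL-4 and 13.60 untreated. Cytoskeletal genes of the actin, SRF and YAP list rose in 24 of 31 named cases, and in 19 under cyclic loess. Tagln, an actin-binding protein of smooth muscle, had 13.01 with IL-4 and 10.20 untreated, and Fhl1 had 13.69 and 11.03. Muscle and pericyte markers rose beside them in 5 of 6 named of 9 cases, at a summed level of 15.35 with IL-4 and 13.76 untreated on the log2 scale, and their part in the result was not tested.

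Lipid genes moved in both directions. Of 40 genes of epidermal barrier lipids 27 were named, of which 20 fell and 6 rose. Smpd3, a neutral sphingomyelinase, had 7.74 with IL-4 and 13.65 untreated. Sdr9c7, a dehydrogenase of acylceramide processing, had 9.18 with IL-4 and 14.56 untreated. Acer1, a ceramidase, and Sptlc3, a subunit of the first enzyme of sphingolipid synthesis, fell (-4.47 and -4.25). Elongases split: Elovl4, Elovl7 and Elovl1 fell (-3.20, -1.84 and -1.47), and Elovl5 and Elovl6 rose by 1.69 and 1.30. The desaturases Fads1 and Fads2 rose by 2.29 and 1.91, with Fads1 at 12.11 with IL-4 and 9.81 untreated. Of 13 named genes of fatty acid storage and PPAR targets 8 fell and 4 rose. Fabp5, the epidermal fatty acid binding protein, had 12.97 with IL-4 and 16.85 untreated, and the acyl-CoA synthetases went apart, Acsl1 at -4.33 and Acsl4 at 2.33. The acid lipases Lipk, Lipn and Lipm fell (-3.16, -3.10 and -2.78). Phospholipases Pla2g2f and Pla2g4e fell (-5.15 and -5.05), while Slco2a1, the prostaglandin transporter, rose by 2.72 and Ptgs2, the inducible cyclooxygenase, was at 0.29. Of 37 listed genes of sterol synthesis and SREBP targets only 6 were named. Of these 4 rose, among them Acat2, Fasn and Mvd (by 1.11, 1.26 and 1.32), and the sterol exporters Abca1 (dim) and Abcg1 fell (-1.04 and -1.31).

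Proteases and their inhibitors mostly fell. Of 18 named kallikreins and other epidermal proteases 13 fell, among them Klk5 (8.99 with IL-4 and 13.55 untreated), Klk9 (10.96 and 14.82) and Prss8, a channel-activating protease (9.52 and 12.53). Klk10 was at 0.05 in both genotypes. Ctsz, a lysosomal cathepsin, rose by 2.74. Of 30 named inhibitors 24 fell. Stfa1 and Stfa3, stefins that block cysteine proteases, fell (-6.07 and -5.48), as did Serpinb10 (-5.05) and Wfdc5 (-4.97). Stefin genes are near-identical, so their separate sizes are uncertain. Timp1 and Timp2, which inhibit matrix metalloproteinases, rose by 2.83 (dim) and 2.81, whereas Timp3 fell by 2.24. Timp2 had 14.20 with IL-4 and 11.39 untreated.

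The interleukin-1 family moved in both directions. Of 32 listed genes 20 were named, of which 12 fell, 5 rose and 3 were under 2-fold. Among ligands, Il18 had 6.61 with IL-4 and 12.87 untreated. Il1f8, Il1f6 and Il1f9, the beta, alpha and gamma forms of IL-36, fell (-3.97, -2.68 and -2.66). Il1a, an alarmin like Il33, rose by 1.19 (12.05 with IL-4 and 10.86 untreated). The antagonists fell too, Il1f5 of the IL-36 receptor (-4.47) and Il1rn of the IL-1 receptor (-3.37). The gasdermins Gsdmc, Gsdma and Gsdma2, whose relatives form the pores that release these cytokines, fell (-5.35, -4.03 and -2.55). Of 4 named receptor genes 3 rose. Il1r1 had 13.21 with IL-4 and 10.91 untreated, Il18r1 had 10.85 and 8.97, and Il1rap, the shared accessory chain, had 10.77 and 9.22. Their KO differences were 1.63, 1.05 and 0.63. Il1r2, a decoy receptor of IL-1, was at -0.75 (dim). Irak3, an inhibitory kinase-like protein of the pathway, rose by 1.64, and the kinase Irak2 fell by 3.40 (dim).

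In the IL-20 family Il24 rose, and named chains of its receptors fell: Il20rb, shared by both IL-24 receptors, had 8.61 with IL-4 and 10.26 untreated. Il22ra1 and Il20ra, which pair with it, fell (-2.67 and -2.04), and so did Il22ra2, a soluble binding protein of IL-22 (-2.90), all 3 dim. KO cultures had differences of -1.32 for Il20rb, -2.61 for Il22ra1, -2.68 for Il20ra and -1.40 for Il22ra2. Other cytokine genes rose in 9 of 10 named cases, with a median of 3.43. Csf1, the macrophage growth factor, had 17.37 with IL-4 and 13.78 untreated. Lif had 11.11 with IL-4 and 7.39 untreated. Tnf had 11.56 with IL-4 and 6.95 untreated, and its difference in KO was 1.91. Csf3 and Csf2, growth factors of granulocytes and macrophages, rose by 3.26 and 2.02, Il7 by 1.68 and Il34 by 1.56, all dim, and Flt3l was at 0.73 (dim). KO differences of these 5 genes were 3.07, 1.60, 3.50, 2.55 and -0.55 in the same order. Il23a, a subunit of IL-23, was dim too, at 9.16 with IL-4 and 4.81 untreated, with 2.88 in KO.

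TNF receptors rose with the ligand, except its main receptor. Of 9 named TNF superfamily genes 8 rose. Tnfrsf22 and Tnfrsf23, decoy receptors for TRAIL in the mouse that lie beside Tnfrsf26 on chromosome 7 (143607685 to 143686436), had 13.42 and 16.47 with IL-4 and 10.38 and 13.99 untreated. The 3 neighbours rose in KO by 2.97, 2.54 and 6.76. Tnfrsf11b, which encodes osteoprotegerin, had 14.22 with IL-4 and 11.29 untreated, and Tnfrsf10b, the mouse death receptor for TRAIL, had 12.81 and 10.61. Tnfrsf1a, through which soluble TNF mainly signals, fell by 1.87, with 11.13 with IL-4 and 12.997 untreated. Tnfrsf12a, the TWEAK receptor, rose by 1.22.

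Chemokine genes and feedback genes of NF-kB rose in most named cases. Of 41 listed chemokine genes 9 were named, of which 6 rose and 2 fell. Cxcl1 had 11.22 with IL-4 and 6.73 untreated, Cxcl2 had 8.40 and 5.41 (dim), and Cxcl3 had 7.33 and 4.65 (dim). These are neutrophil attractants. Cxcl12, a chemokine for stem cells and lymphocytes, had 10.50 with IL-4 and 8.65 untreated. Ccl20 was at -0.26 (dim), and Ackr3, a scavenger receptor of Cxcl12, fell by 1.86 (dim). Of 35 listed NF-kB genes 16 were named and 15 rose. Among these were the inhibitors Tnfaip3 (15.20 with IL-4 and 12.15 untreated), Tnip1 (11.10 and 9.32) and Cyld (10.31 and 9.02). The kinase gene Ikbke (11.48 and 8.86) and the subunit genes Nfkb2 (9.56 and 7.27) and Nfkb1 (12.84 and 11.82) rose too. Bcl3, a nuclear member of the inhibitor family, fell by 2.79.

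The NF-kB motif, searched on both strands as GGG, any 2 bases and TTTCC, was in 5.46% of promoters of genes that rose at least 4-fold, in 0.929% of those that fell at least 4-fold and in 1.399% of all promoters. A second form, GGGA, any base, TT, any base and CC, which overlaps with it, had shares of 4.37%, 0.310% and 0.940%. Of 6 promoters in the chemokine list 3 held the motif, Cxcl1, Cxcl2 and Cxcl3, and of 15 in the NF-kB list Cyld, Nfkb2 and Tnfaip3 did. The promoters of the 3 chemokines and Tnfaip3 are printed with the motif in capitals, as examples. Cyld and Nfkb2 also rose and held a match, and their promoters are not shown. Cxcl1 lies at chr5:90890995-90891244, plus strand, Cxcl2 at chr5:90903649-90903898, plus strand, Cxcl3 at chr5:90785851-90786100, plus strand and Tnfaip3 at chr10:19015411-19015660, minus strand, all in GRCm38.p6.
Cxcl1: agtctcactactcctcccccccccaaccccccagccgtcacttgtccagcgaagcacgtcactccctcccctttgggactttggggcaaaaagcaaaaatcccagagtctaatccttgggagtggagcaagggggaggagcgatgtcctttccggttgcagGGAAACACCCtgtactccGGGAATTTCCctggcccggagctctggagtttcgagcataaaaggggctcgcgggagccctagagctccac
Cxcl2: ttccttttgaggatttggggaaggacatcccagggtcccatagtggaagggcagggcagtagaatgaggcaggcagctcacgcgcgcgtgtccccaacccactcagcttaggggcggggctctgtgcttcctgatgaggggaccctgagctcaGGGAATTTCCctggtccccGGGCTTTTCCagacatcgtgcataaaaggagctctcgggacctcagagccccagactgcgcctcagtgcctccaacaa
Cxcl3: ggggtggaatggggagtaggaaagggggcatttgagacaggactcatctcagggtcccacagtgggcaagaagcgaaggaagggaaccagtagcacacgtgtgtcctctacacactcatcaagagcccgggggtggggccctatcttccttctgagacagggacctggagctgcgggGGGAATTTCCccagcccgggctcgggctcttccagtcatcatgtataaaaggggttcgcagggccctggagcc
Tnfaip3: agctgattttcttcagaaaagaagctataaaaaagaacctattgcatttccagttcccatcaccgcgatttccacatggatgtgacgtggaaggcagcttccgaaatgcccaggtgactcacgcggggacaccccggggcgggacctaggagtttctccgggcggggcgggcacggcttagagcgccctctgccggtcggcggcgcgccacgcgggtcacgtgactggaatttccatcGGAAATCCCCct
Matches span the bases 89 to 80 and 71 to 62 before the start in Cxcl1, 97 to 88 and 78 to 69 in Cxcl2, 73 to 64 in Cxcl3 and 12 to 3 in Tnfaip3, where it is read on the opposite strand, as is the first match of Cxcl1. Each of the 3 chemokine promoters holds 1 match that reads GGGAATTTCC. These 3 genes are paralogs. The motif of STAT6, searched as TTC, any 4 bases and GAA, was in 2.73% of promoters of the rises, 4.33% of the falls and 5.87% of all promoters.

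Most named genes of innate sensing and of interferon rose, with medians of 1.90 and 1.41. C3, the central complement protein, had 10.18 with IL-4 and 6.19 untreated. Tlr3 had 9.93 with IL-4 and 7.53 untreated, and Tlr2 had 12.04 and 10.64. F2rl1, the protease-activated receptor PAR2 known in itch, had 14.59 with IL-4 and 12.56 untreated, with 0.80 in KO. Thbd, the anticoagulant thrombomodulin, fell by 4.001, the only fall among 14 named genes of the list, 11 of which rose. Of 53 listed interferon and antigen presentation genes 15 were named and 12 rose, 9 of the 15 being dim. Irf1 had 10.68 with IL-4 and 7.56 untreated, Ddx58, which encodes the RNA sensor RIG-I, had 10.80 and 9.01, and Tapbp had 13.92 and 12.44. Antimicrobial genes fell in 8 of 9 named cases. Defb1 and Defb14, beta-defensins, fell (-2.28 and -2.56), as did S100a9 and S100a8, the subunits of calprotectin (-5.90 and -4.37), and S100a7a rose by 3.24 (dim).

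The 3 named ligands of the EGF receptor fell. Of 9 named EGF family genes 6 fell and 2 rose. Epgn fell by 4.72, and Areg and Ereg, 2 further ligands, fell (-2.01 and -1.68), both dim and at -0.63 and -0.31 in KO. Cxcl3, Cxcl1, Cxcl2, Epgn, Ereg and Areg lie in this order between 90786101 and 91148432 on chromosome 5, the 3 chemokine genes rising and the 3 ligand genes falling. Erbb2 had 9.61 with IL-4 and 11.43 untreated, and Erbb3 had 8.17 and 9.84. Lrig1, an inhibitor of these receptors, rose by 1.94 (12.20 with IL-4 and 10.26 untreated). Among other growth factor genes Pdgfb rose by 2.96, the VEGF receptor Flt1 by 3.14, with 0.45 in KO, and Nrp2 by 3.49. The FGF receptors exchanged places in sign: Fgfr1 rose by 2.74 and Fgfr3 fell by 2.99, both dim, and Fgfr2 fell by 1.10. Vegfa fell by 1.18. Met, the receptor of hepatocyte growth factor, had 14.13 with IL-4 and 12.37 untreated.

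Of 16 named MAP kinase feedback and immediate early genes 9 rose and 7 fell. Dusp4, a phosphatase of MAP kinases, had 10.35 with IL-4 and 5.57 untreated. Dusp6 had 10.33 with IL-4 and 8.78 untreated, and the transcription factor gene Etv5 had 11.80 and 10.05. The inhibitors Spred1 and Spred2 rose by 1.22 and 1.10, and Etv4 by 3.10 (dim). The early genes Egr1 and Jun had 10.13 and 11.86 with IL-4 and 11.76 and 13.74 untreated. Fos, Ier5, Klf10 and Egr3 (dim) fell (-1.96, -2.29, -1.63 and -2.95). Neither kind of gene moved 1 way throughout: Dusp1, also a phosphatase of MAP kinases, fell by 1.24, and the early gene Ier3 rose by 1.32 (16.53 with IL-4 and 15.21 untreated). Egr3 is measured by 2 clusters whose differences are 0.70 apart. The cluster not used here had 7.08 with IL-4 and 10.72 untreated, a fall of 3.64 that was not dim. All 16 kept their direction in KO.

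**Figure D5:**
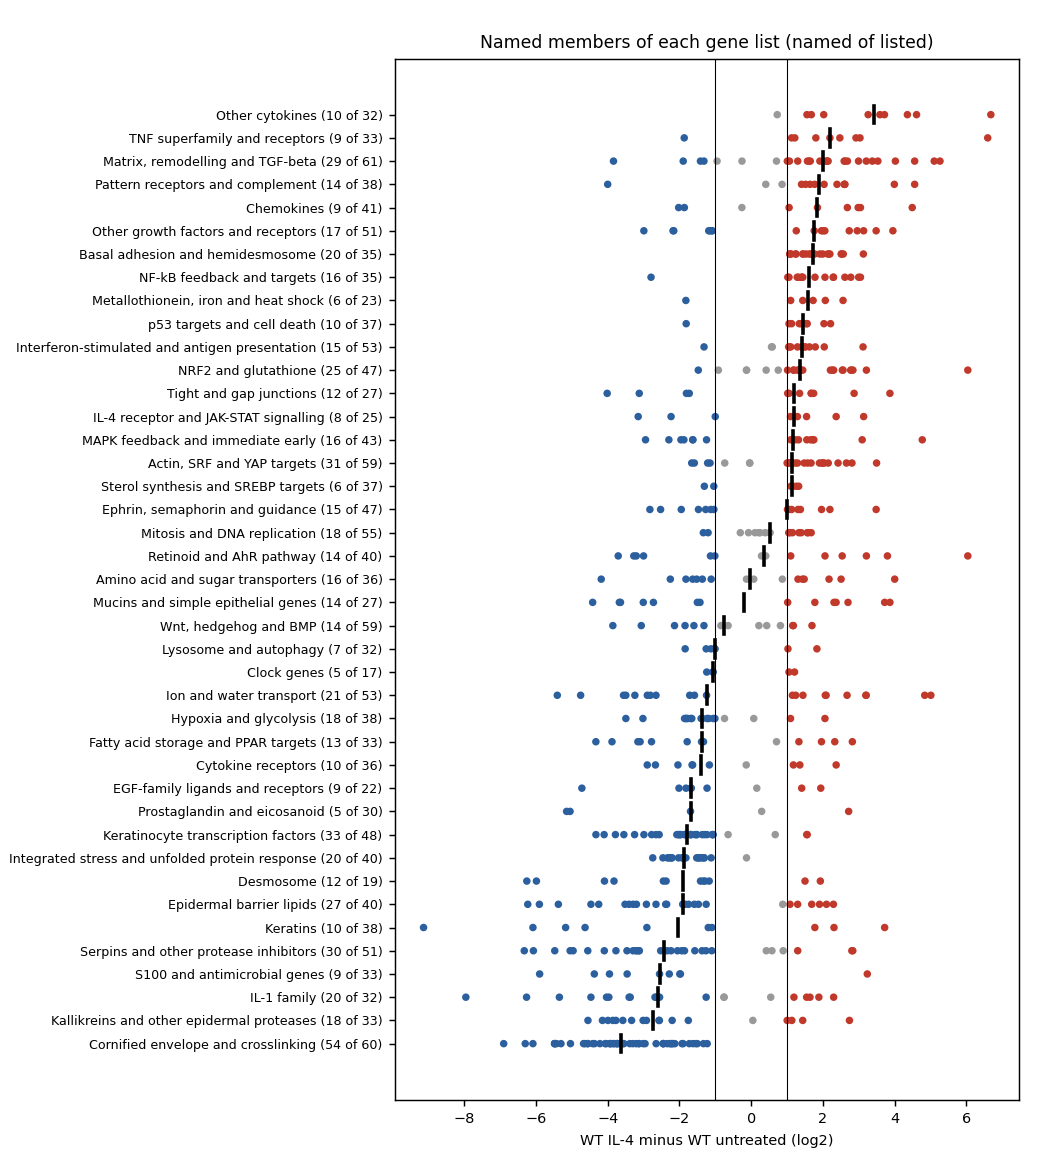
Log2 differences of WT with IL-4 minus WT untreated (horizontal) for the named members of each list with at least 5 named members, 1 point per gene and a black bar at the list median. Vertical lines mark 2-fold, red points rose, blue points fell and grey points were under 2-fold; the list medians run between -3.63 (cornified envelope) and 3.43 (other cytokines).

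Stress pathways went in different directions. The genes of the integrated stress response, which ATF4 drives when translation factor eIF2 is phosphorylated, fell in WT. Of 40 listed 20 were named and 19 fell, with a median of -1.86. Chac1, a glutathione-degrading enzyme, had 6.86 with IL-4 and 9.61 untreated. Psat1, of serine synthesis, had 11.81 with IL-4 and 14.28 untreated. Atf4 itself was at -1.12 and Asns, asparagine synthetase, at -1.31. The untreated KO culture was lower than the untreated WT culture in all 20 named genes, each read from 1 array a side. Atf4 had 14.29 with IL-4 and 15.40 untreated in WT, and 14.25 and 14.23 in KO. In KO the median difference was 0.51, with 6 rises and 2 falls among the 20. Trib3 had 9.99 with IL-4 and 11.45 untreated in WT, and 10.52 with IL-4 and 8.81 untreated in KO. Slc7a11, the cystine transporter, was at -0.13 in WT and 2.89 in KO. The composite motif of ATF4 with C/EBP, TGATGNAA, was in 3.53% of all promoters. It was in 5.57% of promoters of the falls of at least 4-fold and in 1.09% of such rises. Of the 791 promoters of falls of at least 2-fold it was in 3.03%, a share under that of all promoters. In the list 3 of 15 promoters held it, Asns, Chac1 and Pycr1 (dim). The first 2 are printed with the motif in capitals, Chac1 at chr2:119350992-119351241, plus strand and Asns at chr6:7693210-7693459, minus strand, in GRCm38.p6.
Chac1: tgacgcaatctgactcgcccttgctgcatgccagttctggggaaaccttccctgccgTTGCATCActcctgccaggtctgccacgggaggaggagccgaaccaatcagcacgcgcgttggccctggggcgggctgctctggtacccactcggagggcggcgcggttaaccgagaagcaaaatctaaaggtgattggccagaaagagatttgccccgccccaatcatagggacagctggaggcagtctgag
Asns: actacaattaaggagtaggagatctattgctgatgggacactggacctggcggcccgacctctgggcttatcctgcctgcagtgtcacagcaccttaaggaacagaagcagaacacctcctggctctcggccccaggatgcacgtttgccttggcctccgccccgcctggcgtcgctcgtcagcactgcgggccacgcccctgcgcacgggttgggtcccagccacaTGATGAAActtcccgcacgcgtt
It spans the bases 193 to 186 before the start in Chac1, where the match is on the opposite strand, and 23 to 16 in Asns.

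Targets of NRF2, the factor of the oxidative stress response, rose in 19 of 25 named cases of 47 listed, with a median of 1.37 in WT and 2.04 in KO. Gsr, glutathione reductase, had 13.04 with IL-4 and 10.27 untreated. Txnrd1, thioredoxin reductase, had 13.78 with IL-4 and 10.99 untreated. Gpx2, a glutathione peroxidase, had 11.51 with IL-4 and 8.68 untreated. The ferritin chains Ftl1 and Fth1 rose by 2.56 and 1.44, both above 16 with IL-4, and Tfrc, which imports iron, rose by 2.07. Hmox1, often named as a target, was at -0.91, and Mgst2 fell by 1.475. The antioxidant response motif TGACNNNGC was in 16.9% of promoters of the rises of at least 4-fold, 12.1% of the falls and 10.2% of all. At 2-fold the shares were 11.7% of the rises and 12.4% of the falls. Of this list only 2 of 17 promoters held it, Gclm and Gsta3. Of 37 listed p53 targets and death genes 10 were named, of which 9 rose and Bnip3 (dim) fell. Mdm2 was at 14.27 with IL-4 and 12.88 untreated, and the survival gene Bcl2 at 10.32 and 8.11.

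Hypoxia and glycolysis genes fell in 14 of 18 named cases, with a median of -1.38. Car12, a carbonic anhydrase, had 8.78 with IL-4 and 12.28 untreated. Hif1a had 15.40 with IL-4 and 16.76 untreated, and its prolyl hydroxylase gene Egln3 had 7.82 and 10.83. The glycolytic enzymes Pfkp, Pfkl and Tpi1 fell (-1.77, -1.86 and -1.397), and Pdk1 fell by 1.66. Hk1 and P4ha2 rose by 1.10 and 2.06, and Slc16a3, the lactate exporter, was at 0.07 in WT and -3.28 in KO. In KO 12 of the 18 fell and none rose.

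Transport genes moved in both directions. The aquaporins Aqp9 and Aqp3, which carry glycerol and water, had 6.60 and 5.41 with IL-4 and 12.01 and 10.16 untreated. Slc5a1, the sodium glucose cotransporter, had 6.06 with IL-4 and 10.24 untreated. Slc7a8, a light chain of amino acid exchange, had 11.46 with IL-4 and 7.46 untreated, while Slc7a5, its relative, fell by 1.52. The subunits of the sodium pump went apart, Atp1b1 at 4.84 and Atp1b3 at -1.71 (13.65 with IL-4 and 15.37 untreated). Scnn1a, the alpha subunit of the epithelial sodium channel, fell by 2.65. Of 21 named ion and water genes 10 rose and 11 fell, of 16 named amino acid and sugar transporters 6 rose and 7 fell.

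Retinoid genes moved in both directions, 6 of 14 named genes of the retinoid and aryl hydrocarbon receptor list rising and 6 falling. Crabp2, a retinoic acid binding protein, had 11.61 with IL-4 and 15.32 untreated. The retinoid dehydrogenase genes Rdh12, Sdr16c5 and Sdr16c6 fell (-3.27, -3.20 and -3.001). Aldh1a3, which makes retinoic acid, had 13.77 with IL-4 and 11.23 untreated, and Rdh10 rose by 2.06 (dim). Cyp1b1, a target of the aryl hydrocarbon receptor, had 11.96 with IL-4 and 8.16 untreated, and Ahr was at 0.41 (dim). Among signalling ligands Wnt4 had 7.56 with IL-4 and 11.42 untreated, and Wnt3 fell by 3.06 (dim). Of 15 named ephrin and guidance genes 8 rose and 7 fell. Epha2 had 13.89 with IL-4 and 11.70 untreated, and Epha4 had 9.18 and 12.00.

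Of 55 listed cell cycle genes 18 were named, of which 8 rose, 2 fell and 8 were under 2-fold, with a median of 0.52 in WT and -0.47 in KO. The rises were of genes of the G1 phase and DNA replication, Rrm2 (13.77 with IL-4 and 12.09 untreated), Ccnd2 (15.91 and 14.34), Mcm2 (10.73 and 9.15), Ccne1, Cdc6 (dim), Uhrf1, Ccnd3 and Mcm4, and the falls were of E2f2 and Gins1, both dim. Genes of mitosis, Ccnb2, Prc1, Top2a, Tpx2, Plk1, Racgap1 and Cdk1, lay between -0.30 and 0.53, Prc1 and Cdk1 being dim. These were named only through the KO comparison with IL-4, so the 2 sets were chosen on different arrays and their difference is a description.

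Genes that moved one way also lay side by side. Of 2210 named genes past 2-fold with a RefSeq position, runs of at least 6 with gaps of at most 200 kb formed 22 neighbourhoods, counted over named genes alone. Named genes under 2-fold, such as Klk10 at 0.05, were left out before the runs were formed. Unchanged genes inside a run are therefore not counted. In 5 of the 22 neighbourhoods all genes so counted moved one way. The longest held 43 genes on chromosome 3, from 92080271 to 93471980, the epidermal differentiation complex between Lor and Tchhl1, and all 43 fell, with a median of -3.38. The others that fell were 7 genes with the stefins on chromosome 16 (36043844 to 36455392), 6 kallikreins on chromosome 7 (43712567 to 43851181) and 6 genes between Psenen and Krtdap on chromosome 7 (30561865 to 30791089). The neighbourhood that rose held 6 genes between Hipk1 and Magi3 on chromosome 3 (103739815 to 104220406), with a median of 1.53. Most of these are families of related sequence, so their members are not independent.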

How the data were processed

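RNA from 4 cultures of primary mouse keratinocytes was measured, 1 array per combination of genotype and treatment. The deposited table of log2 values has 22206 rows for transcript clusters and 6640 for controls, 5222 of them negative controls. Per the labels and the submitters' processing notes these came from RMA in Affymetrix Expression Console 1.4 (core-exon analysis), and the design text names the Affymetrix Exon Array Computational Tool instead. RMA evens out the arrays' distributions, so a shift common to all genes would not be seen, and array medians were 5.10 to 5.15. Between 233 and 245 clusters per array exceed 16, so a further transformation may have been applied, and differences are taken at face value. Per the file headers the annotation is na36 on mm10. The authors also deposited 2 tables with a signed fold change score, with positive values where the untreated or WT sample is the higher one (the differences here run the other way). Their WT columns matched the arrays to within 0.0142.

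Differences were computed with pandas 2.3.3 in Python 3.11.15, and cyclic loess with limma 3.58.1 in R 4.3.3. The count step was tested on simulated data. Symbols come only from the deposited tables. For the 8 symbols with several clusters the first identifier was used, and the 72 clusters past 2-fold with several symbols were not named. Genes were named by rule: the 12 largest rises and falls, the 12 largest of each with both values between 9.21 and 16, and members of 52 gene lists, mainly those with the largest changes. A few list members are counted but not reported by name here. Members and lists were chosen with earlier results of these data known. Of the symbols 2518 matched RefSeq on GRCm38.p6, 2412 of them as current. Each gene's first RefSeq promoter was searched for 15 motifs. Alternatives were other scalings, level filters and fold thresholds. With 1 array per group no test, interval or replicate error exists, and precision is limited by the number of arrays.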

Additional observations from a re-analysis of the deposited data

Results flagged for a closer look

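Of the 2560 named genes, 9 passed 2-fold in opposite directions in the WT and KO pairs. Of the named genes 1202 rose and 1044 fell in WT, most being named because they passed 2-fold there. The same share among control rows is not given here. The difference between the pairs was not tested, since each response is 1 array minus 1 array. Of these genes 7 fell in WT and 2 rose, and 5 belong to the integrated stress list.

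Trib3, a pseudokinase, was at -1.46 in WT and 1.72 in KO. Stc2, a secreted glycoprotein, was at -2.22 in WT and 2.15 in KO. Slc7a3, a cationic amino acid transporter, was at -1.82 in WT and 1.17 in KO. In these genes the untreated WT value was the highest of the 4 arrays. For Slc7a3 the values were 9.36 with IL-4 and 11.18 untreated in WT, and 8.15 with IL-4 and 6.98 untreated in KO.

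Mitochondrial and amino acid enzymes followed the same order of signs. Mthfd2, of one-carbon metabolism, was at -1.49 in WT and 1.30 in KO, Aldh18a1, of proline synthesis, at -1.36 and 1.09, and Pck2, of gluconeogenesis, at -1.85 and 1.10. Deptor, an inhibitor of mTOR, was at -1.04 in WT and 1.05 in KO.

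The 2 genes that rose in WT were Ifitm3, an antiviral membrane protein, at 2.04 in WT and -1.29 in KO, and Hmgn5, a nucleosome-binding protein, at 1.04 in WT and -1.28 in KO, the last one dim. Ifitm3 had 13.56 with IL-4 and 11.53 untreated in WT, and 10.89 with IL-4 and 12.18 untreated in KO.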

How the results depend on the processing

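Of 421 values recomputed under an alternative, 407 stayed within 0.378 on the log2 scale or, for counts, within 1.5 times. Another 13 moved further and 1 changed sign. The limit of 0.378 is the robust standard deviation of the WT minus KO response divided by the square root of 2. Of the 421, 48 were the authors' rounded values of the same arrays and 102 came from median centring, a constant shift. Such values had little room to move, so the share of 407 does not measure robustness. The count of 1250 rises and 1076 falls became 740 and 674 with the highest WT value at or above 9.21, and 428 and 348 with both WT values in range. At 1.5-fold it was 2546 and 1953, and at 4-fold 266 and 426. Cyclic loess lowered the median difference by 0.10, to -0.01, and gave 1031 rises and 1242 falls, so the balance turned although each count stayed within 1.5 times. Of 7 named lysosome genes 5 fell as deposited, 4 after quantile normalization and 3 after median centring. Several lists had fewer rises under cyclic loess. The actin, SRF and YAP list had 19 against 24 as deposited, and tight and gap junctions had 6 against 8. The NF-kB list had 13 against 15, the interferon list 10 against 12 and basal adhesion 19 against 20. Under the 3 scalings no value of the 48 genes named by size moved by more than 0.134. Without the level filter the list medians became 1.34 for other growth factors, -0.46 for clock genes, -0.046 for ion and water transport, -0.80 for mucins and simple epithelial genes and -0.65 for T cell markers, and that of ephrins and guidance genes turned to -0.014. These shifts come from more named genes entering each list.

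No paired analysis was possible because each group has 1 array, and with 1 array per group none was left out in turn. Signal limits the sizes: 510 rises and 402 falls were dim, and the scale of values above 16 is uncertain. Genes without a symbol in the deposited tables were not analysed by name.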

Other observations

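Several genes outside the lists, chosen after their values were seen, were among the large changes. Among relatives of prolactin that are known from the mouse placenta 4 rises were seen: Prl2c5 had 14.67 with IL-4 and 11.54 untreated, Prl8a9 had 10.32 and 7.42, and Prl8a1 and Prl7d1 had 6.33 and 5.92 with IL-4 and 3.98 and 3.48 untreated, both dim. The family shares sequence, so its members may not be separate measurements. Nppb, which encodes a natriuretic peptide, had 11.37 with IL-4 and 8.30 untreated. Pdpn (podoplanin), a membrane protein of basal and wound-edge keratinocytes, had 15.35 with IL-4 and 12.55 untreated. Map3k14, the kinase of the alternative NF-kB pathway, had 11.54 with IL-4 and 7.72 untreated.

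Hal, which makes urocanic acid from histidine, had 3.71 with IL-4 and 7.94 untreated (dim). Cyp2b19, a keratinocyte cytochrome P450, had 8.70 with IL-4 and 12.82 untreated. Ceramide synthase genes went apart, since Cers2 had 11.24 with IL-4 and 8.05 untreated while the listed Cers3 had 10.53 and 14.04. Among smaller lists, 3 of 5 named clock genes fell, and 5 of 6 named iron and heat shock genes rose. Of 6 Y-linked genes listed 3 were named and rose, all dim: Uty (1.52), Kdm5d (1.45) and Eif2s3y (1.21).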
